A study of Mus musculus with 2 samples.

Results

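ISL1 CUT&Tag signal around 32 genes of the presynaptic terminal was described from 2 peak lists of E13.5 wild-type mouse retina. The genes encode the vesicle fusion machinery, vesicle proteins, the active zone, and the enzymes and transporters of glutamate, GABA and acetylcholine. They were chosen by name out of 21887 protein-coding genes. For each gene every interval was taken that overlapped the gene span extended by 50 kb on both sides. ISL1 is a LIM-homeodomain transcription factor of retinal ganglion cells and of cholinergic amacrine cells. In CUT&Tag an antibody held on its target in the nucleus brings Tn5 transposase to the site, which cuts and tags the DNA beside it. Both lists, replicate 1 and replicate 2, belong to a single group, so no groups could be compared. The tissue was the whole retina, with its progenitors and newborn neurons mixed, and a pair of rabbit ISL1 antibodies is named without saying which sample received which. The labels do not say whether the samples came from separate animals, and no control antibody or mutant was analysed here.

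Transmitter is released when a vesicle docks at the active zone and SNARE proteins on the vesicle and the plasma membrane zip together, with synaptotagmin as the calcium sensor. Vesicles are filled by transporters that differ between glutamatergic, GABAergic and cholinergic neurons, so these transporters and the enzymes beside them mark a neuron's transmitter. Many presynaptic genes carry RE1, the binding site of the repressor REST, which keeps neuronal genes silent outside neurons. In the retina, ganglion cells use glutamate and starburst amacrine cells use acetylcholine together with GABA.

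The lists held 123923 intervals in replicate 1 and 158881 in replicate 2 on chromosomes 1 to 19, X and Y. Around the 32 genes lay 361 intervals of replicate 1 and 397 of replicate 2. An interval is shared where it overlaps an interval of the other list by 1 bp or more, and the joined intervals form a shared peak. The maximum signal is the authors' highest coverage in an interval. An interval was called uneven where its total signal was under 95% of its width times its maximum, which needs more than 1 distinct fragment. The read depth of the libraries is unknown, so signal was read within each list and set side by side between lists without a fold. Coordinates are 1-based in mm10.

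The sequences before the starts of 5 genes are printed because intervals of at least 1 list lay at these starts. Bsn and Unc13a had a shared peak there, Cplx1 and Synpr had intervals of both lists that did not overlap, and Syt1 had a tall interval of replicate 1. Each is the stretch of 250 bases ending just before the annotated start, written 5′ to 3′ on the strand of the gene, from RefSeq on GRCm38.p6, which is mm10. Capitals mark TAAT or its reverse complement ATTA, the core bound by most homeodomains. They lie at chr9:108190384-108190633 (Bsn, minus strand), chr8:71671758-71672007 (Unc13a, minus strand), chr5:108550028-108550277 (Cplx1, minus strand), chr14:13284530-13284779 (Synpr, plus strand) and chr10:109010976-109011225 (Syt1, minus strand).
Bsn: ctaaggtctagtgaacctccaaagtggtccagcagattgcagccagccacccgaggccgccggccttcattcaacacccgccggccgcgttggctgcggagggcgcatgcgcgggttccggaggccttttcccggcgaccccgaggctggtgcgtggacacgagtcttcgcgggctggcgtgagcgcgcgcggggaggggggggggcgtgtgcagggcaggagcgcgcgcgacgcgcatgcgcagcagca
Unc13a: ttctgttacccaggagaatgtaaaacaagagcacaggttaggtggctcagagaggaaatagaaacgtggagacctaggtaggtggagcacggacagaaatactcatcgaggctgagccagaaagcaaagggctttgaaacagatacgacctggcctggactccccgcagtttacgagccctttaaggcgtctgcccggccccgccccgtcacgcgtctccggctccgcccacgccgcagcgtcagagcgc
Cplx1: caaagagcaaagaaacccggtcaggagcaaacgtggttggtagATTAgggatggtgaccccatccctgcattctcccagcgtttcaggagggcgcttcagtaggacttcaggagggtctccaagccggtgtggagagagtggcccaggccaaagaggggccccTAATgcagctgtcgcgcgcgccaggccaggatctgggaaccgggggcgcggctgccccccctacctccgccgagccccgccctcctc
Synpr: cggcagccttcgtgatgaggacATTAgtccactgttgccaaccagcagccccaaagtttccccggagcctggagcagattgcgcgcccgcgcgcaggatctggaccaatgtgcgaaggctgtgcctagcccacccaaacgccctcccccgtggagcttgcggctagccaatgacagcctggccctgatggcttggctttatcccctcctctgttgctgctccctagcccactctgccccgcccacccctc
Syt1: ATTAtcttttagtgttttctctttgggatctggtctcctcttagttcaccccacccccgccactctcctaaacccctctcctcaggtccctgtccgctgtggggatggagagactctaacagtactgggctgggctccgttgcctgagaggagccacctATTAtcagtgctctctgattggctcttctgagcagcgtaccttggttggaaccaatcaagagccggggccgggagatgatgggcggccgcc
The Bsn and Unc13a stretches held 0 matches to TAAT, Cplx1 held 2, Synpr 1 and Syt1 2. These counts describe the stretches and not the sequences under the shared peaks. Neither Unc13a interval reaches the Unc13a stretch. Of the Bsn intervals, that of replicate 1 reaches only the end of the Bsn stretch, and that of replicate 2 does not reach it. The Bsn stretch was 71.6% G and C with 32 CpG sites, and the Syt1 stretch was 56.4% with 8.

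Promoter entries of 300 bases, from 250 before to 50 after the start, were found for 28 of the 32 genes and numbered 39, since some genes have more than 1 start. TAAT, searched on both strands, was present in 23 of the 39 (59.0%) and in 51.8% of the 21263 promoters of all protein-coding genes. CTAATG, a site type of LIM homeodomains, was in 3 (Cplx1, Rph3a and Synpr) or 7.69%, against 6.44% of all. TAATGG was in 1 (Stx1a) or 2.56%, against 6.46%. TAATTA and ATAATTA were in 1, that of Slc17a6, against 4.53% and 2.30%. Each of these longer motifs contains TAAT, so the counts overlap. The E-box CANNTG, the site of proneural factors such as Atoh7, was in 30 (76.9%) against 69.0%. A match describes letters in this window and is not a bound site.

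Exact matches to the arms of RE1 were searched as TTCAGCACC for the left arm and GGACAGCGC for the right arm, on both strands. Either arm was in 3 of the 39 promoters (7.69%) and in 0.926% of all promoters. Unc13a held both arms, which 5 of the 21263 promoters did. No condition was set on the order or spacing of the arms, and an arm that differs in any base was not counted. The matches are printed with the arms in capitals, at chr8:71671725-71671754 (plus strand) for Unc13a, chr2:22622162-22622190 (plus strand) for Gad2 and chrX:20921132-20921160 (minus strand) for Syn1.
Unc13a: gcTTCAGCACCgggggcgcGGACAGCGCct
Gad2: gtagcaccctGGACAGCGCgttccggcag
Syn1: cactgtcggaTTCAGCACCgcggtcagag
The Unc13a stretch runs from 3 to 32 bases after the start, on the strand opposite to the gene, and neither interval of the Unc13a start reaches it. The Gad2 and Syn1 stretches lie before their starts, from 165 to 137 and from 242 to 214 bases.

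Intervals lay around every one of the 32 genes in each list, as around 98.9% of all protein-coding genes in replicate 1 and 99.3% in replicate 2. The median was 5.37 intervals per 100 kb of window in replicate 1 and 5.73 in replicate 2, where all genes had medians of 5.26 and 6.12. The density was lowest for Pclo in replicate 1 (1.78) and for Syn1 in replicate 2 (1.25). It was highest for Vamp2 in replicate 1 (16.4) and for Rab3a in replicate 2 (11.5). Of the 32 genes, 16 lay above the median of all genes in replicate 1 and 13 in replicate 2, so the density around the synaptic genes lay on both sides of that around other genes. In number, the medians were 8 intervals in replicate 1 and 11 in replicate 2, where all genes had 7 and 8, and 22 and 20 of the 32 genes were above those medians, in windows with a median of 148 kb against 117 kb.

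**Figure D1:**
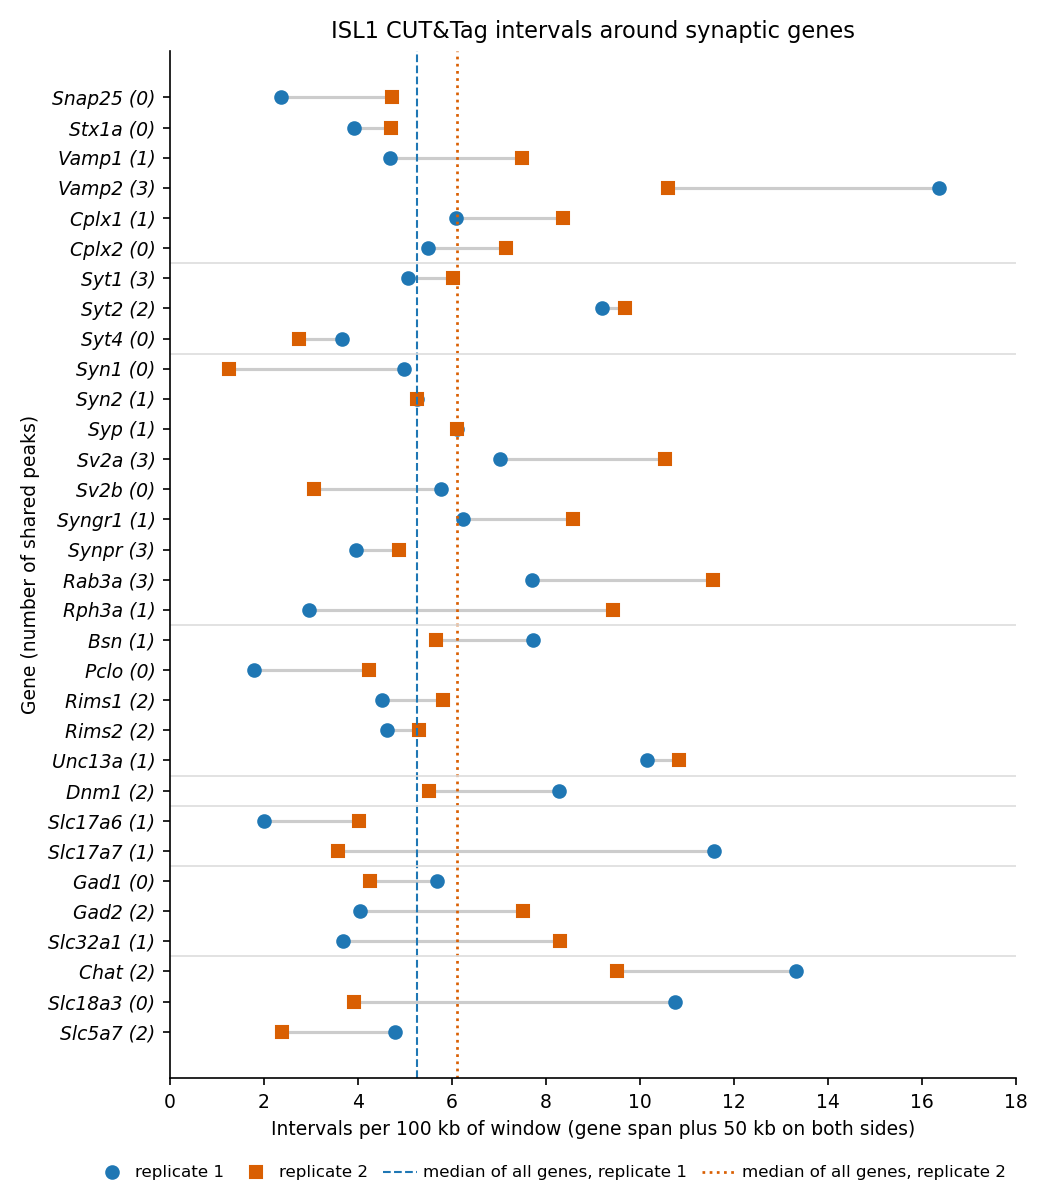
Intervals per 100 kb of window around each of the 32 genes, with circles for replicate 1, squares for replicate 2 and the number of shared peaks in brackets. Dashed and dotted lines are the medians of all protein-coding genes, 5.26 and 6.12, and the synaptic genes lie on both sides of them.

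A shared interval was found for 23 of the 32 genes (71.9%), and for 55.3% of all protein-coding genes. The 40 shared peaks were spread thinly: 11 genes had 1, 7 genes had 2, 5 genes had 3, and 9 genes had none. Synaptic genes are long, with a median span of 48.5 kb against 17.2 kb for all genes, and a longer window holds more intervals. By length, a shared interval was found for 47.8% of the shortest tercile of all genes and 4 of 5 synaptic genes, for 53.5% of the middle tercile and 5 of 7, and for 64.5% of the longest tercile and 14 of 20 (70.0%). Among the intervals themselves, 11.4% of those around the synaptic genes were shared in replicate 1 (95% Wilson interval 8.48 to 15.0) and 10.3% in replicate 2 (7.70 to 13.7). Over all intervals the shares were 11.5% and 8.91%, both within these bounds. The bounds take in counting error alone, because PCR copies of a fragment are not separate molecules.

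More of the shared peaks lay in the flanks than inside the genes. Of the 40 shared peaks, 12 had their midpoint inside a synaptic gene and 28 in the flanks, 12 of them more than 30 kb from the span. The split into inside and flank was not counted for all shared peaks. The nearest listed start was that of the synaptic gene for 14 of the 40 and that of another gene for 26. A maximum signal of 10 or more in both lists was found for 16 peaks (40.0%), against 28.5% of all 13704 shared peaks. Of the 16, 3 lay inside (in Unc13a, Rims2 and Syt1) and 13 outside, a split that was not counted for all shared peaks. A shared interval uneven in both lists was found for 4 genes, Dnm1, Sv2a, Gad2 and Rims1 (12.5%, against 7.53% of all genes). Within the longest tercile it was found for 3 of 20 synaptic genes (15.0%) and for 9.14% of all genes. The 5 such peaks all lay outside the spans. With the gene spans alone, 10 of 32 genes (31.2%) had a shared interval against 19.3% of all genes and 38.4% of the longest tercile, and 0 had an uneven one against 2.37%. All 10 of these genes were in the longest tercile, where they were 10 of 20. Within 10 kb the count was 12 (37.5%, against 30.1%), with 0 uneven against 3.69%. Within 100 kb it was 27 (84.4%, against 73.5%), with 5 uneven (15.6%, against 11.7%). At the reach of 50 kb, 14 genes had a shared interval when each interval had to cover 50% of the other, against 31.9% of all genes, and 13 had one with a maximum signal of 5 or more in both lists, against 35.4%. Just inside the limit of 50 kb lay a Vamp1 peak with a gap of 45731 bp to the gene, and just outside lay peaks 50350 bp from Sv2a and 50856 bp from Syt4.

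**Figure D2:**
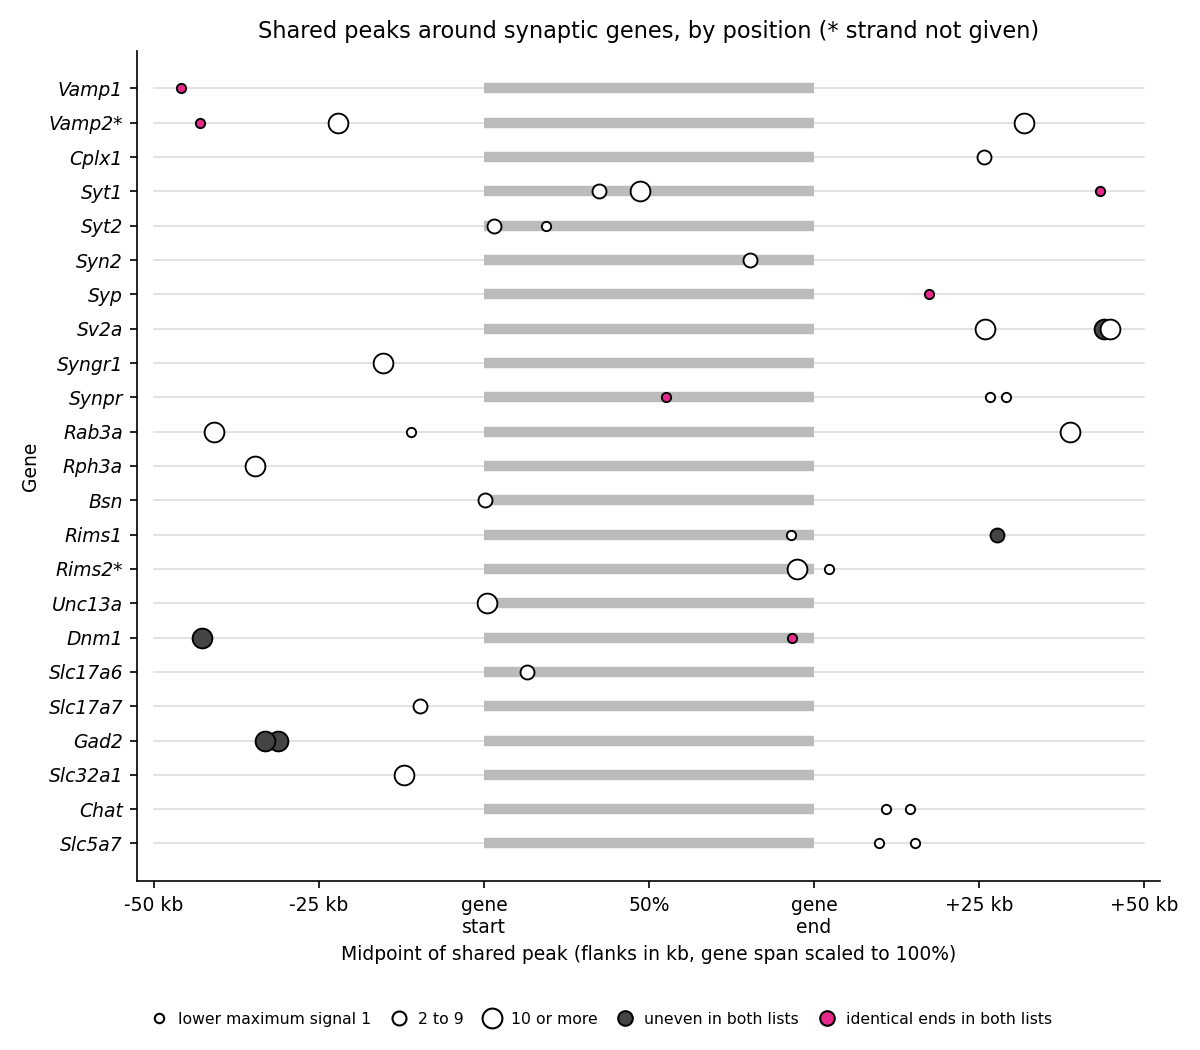
Midpoints of the 40 shared peaks for the 23 genes that have one, with flanks in kb and each gene span scaled to 100%. Circles grow with the lower of the 2 maximum signals, and the 5 filled dark circles, uneven in both lists, all sit in the flanks.

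**Figure D3:**
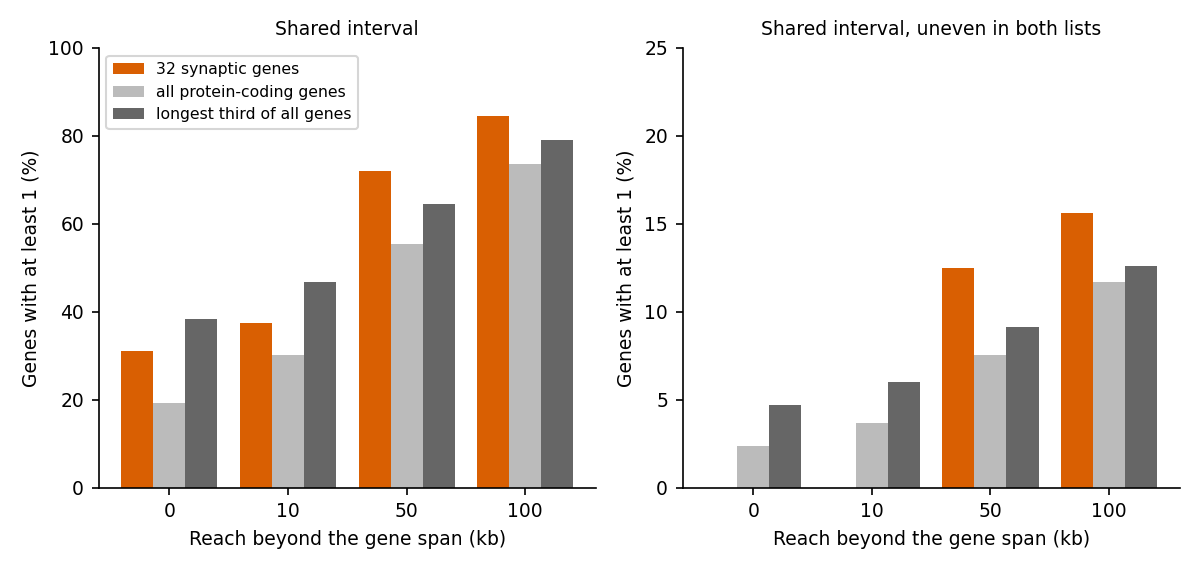
Percent of genes with a shared interval (left) and with one uneven in both lists (right) at 4 reaches beyond the gene span. Bars are the 32 synaptic genes, all protein-coding genes and the longest tercile of all genes, which holds 20 of the 32. Synaptic genes rise from 31.2% to 84.4% on the left and from 0% to 15.6% on the right.

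The SNARE group comprised 6 genes, and 3 of them (Vamp1, Vamp2 and Cplx1) had a shared interval. Vamp2, the main vesicle SNARE of central synapses, had 3 shared peaks, none inside its span of 3.85 kb. Its best, at chr11:69123760-69124691, was 31844 bp beyond the gene, reached a maximum of 57 in replicate 1 against 12 in replicate 2, and ranked 729 of the 13704 shared peaks by total signal. The nearest listed start there is that of Hes7, 3772 bp away. A second, at chr11:69066234-69066627, had 10 and 14, and the last had identical ends in both lists and signals of 25 and 1. Vamp1, a vesicle SNARE of fast synapses, had 1 shared peak at chr6:125169606-125169850, 45853 bp before its start, also with identical ends and with 25 and 1. Cplx1, a complexin that clamps the SNARE complex, had 1 at chr5:108492507-108492974 with 9 and 3, inside Pcgf3. Snap25 and Stx1a, the plasma membrane SNAREs, and the other complexin gene Cplx2 had none. The window of Snap25 held 4 intervals in replicate 1 and 8 in replicate 2, that of Stx1a 5 and 6, and that of Cplx2 10 and 13.

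Of the 3 synaptotagmin genes, Syt1 and Syt2 had shared peaks inside the gene. Syt1, the calcium sensor of fast release, spans 513 kb and had a peak at chr10:108832012-108832590, 176810 bp downstream of its start, with maximum signals of 26 and 8 and uneven coverage in replicate 1. Another inside the gene, at chr10:108767402-108767631, had 18 and 11 with an overlap of 24 bp, and a further peak, with identical ends and outside the gene, had 20 and 1. Syt2, a calcium sensor of other fast synapses, had a peak at chr1:134649611-134650233, 3310 bp downstream of its start, with 6 in replicate 1 and 28 in replicate 2. Its other peak, 20109 bp downstream, had 14 and 1. Syt4, a synaptotagmin of dense-core vesicles, had no shared peak, with 4 intervals in replicate 1 and 3 in replicate 2 and maxima of 17 and 4.

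Vesicle proteins and synapsins formed the largest group, with 7 of 9 genes near a shared peak. Around Sv2a, a glycoprotein of synaptic vesicles, lay 3 shared peaks, all within 1 kb of histone gene starts in the flank. The best, at chr3:96238805-96239572, ranked 595, had maximum signals of 27 and 34, was uneven in both lists and lay 61 bp from the start of H3c15 and 44005 bp from Sv2a. The next, with 21 and 11, lay beside H2ac19, and the last, with 13 and 16, beside H2ac20. Just outside the window lay shared peaks at chr3:96246255-96247022, with 48 and 17, and at chr3:96245533-96246148, with 25 and 6. These have the widths of the best and the next peak, 768 and 616 bp, and the reason was not tested. Around Rab3a, the small GTPase of vesicle docking, the best of 3 peaks (chr8:70797054-70797629) had 68 in replicate 1 and 14 in replicate 2, ranked 760 and lay 38733 bp beyond the gene inside Mast3. Its second, in Iqcn, had 24 and 13, and its last, 11088 bp before the start and inside Pde4c, had 17 and 1.

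Syngr1, a tetraspan vesicle protein, had a peak between genes at chr15:80075732-80076416, 15260 bp before its start, with near-equal maximum signals of 18 and 17 and rank 1326. Rph3a, the Rab3 effector rabphilin, had one 34742 bp before its start (chr5:121044548-121045121) with 19 and 15. In Syn2, a synapsin that tethers vesicles to actin, a peak lay at chr6:115253382-115254364, 1668 bp from the start of Timp4, a gene nested in Syn2, with 20 and 3. Synpr, synaptoporin, had 3 peaks in which the lower signal was 1, and Syp, synaptophysin, had 1 with 28 and 1. Syn1 and Sv2b had none, with 8 and 2 intervals and 17 and 9 intervals. Among these genes the peaks that were high in both lists lay before the gene or at a neighbour.

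Of 5 active zone and priming genes 4 had a shared peak, and this group held both shared peaks at a gene start. Unc13a, the priming factor that readies vesicles for fusion, had one at chr8:71671089-71671694 with maximum signals of 32 and 12 and rank 2249. The interval of replicate 1 lay 545 bp downstream of the start and that of replicate 2 lay 245 bp downstream, and they met in 7 bp. Bsn, the scaffold protein bassoon, had one at chr9:108189939-108190419 with 4 and 6, in which the interval of replicate 2 lay wholly inside that of replicate 1, an overlap of 281 bp. The Bsn pair was thus weaker in signal and closer in position than the Unc13a pair. Rims2, a scaffold that links vesicles to calcium channels, had a peak inside the gene at chr15:39659237-39659960 with 25 and 21, rank 855 and an overlap of 55 bp. A second lay 2215 bp outside the span with 36 and 1. Rims1, its paralogue, had a peak 27781 bp beyond the gene (chr1:22258003-22258380), uneven in both lists, with 13 and 8, and one inside with 1 and 10. Pclo, the scaffold piccolo, had none, with 8 intervals in replicate 1 and 19 in replicate 2.

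The best-ranked peak of the 40 lay in the window of Dnm1, the GTPase that pinches off recycled vesicles. At chr2:32395604-32396495 it had maximum signals of 29 and 59, rank 373 and uneven coverage in both lists. It lay 42720 bp before the Dnm1 start and 159 bp from the start of Ptges2, which encodes a prostaglandin synthase. A second Dnm1 peak, inside the gene, had identical ends and signals of 1 and 9.

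The shared peaks of the glutamate transporters ranked near the middle of all shared peaks. Slc17a6, the vesicular glutamate transporter of ganglion cells, had a peak at chr7:51627950-51628609, 3642 bp downstream of a start and inside the gene, with 7 in replicate 1 and 2 in replicate 2. Slc17a7, a second vesicular glutamate transporter, had one 9734 bp before its start with 19 and 2. It lay 116 bp from the start of Pih1d1, and the intervals overlapped by 15 bp. Their ranks were 7181 and 6249, and the median rank of all shared peaks was 6852.5.

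GABA genes differed in position and signal. Around Gad2, one of the enzymes that make GABA from glutamate, a pair of peaks uneven in both lists lay side by side inside the neighbouring gene Myo3a. They stood at chr2:22589202-22590534, with 18 and 13, and at chr2:22587288-22588287, with 12 and 15. They were 32459 and 34540 bp before the Gad2 start and 1333 and 1000 bp wide, the widest of the 40. Slc32a1, the vesicular GABA and glycine transporter, had a peak between genes at chr2:158594888-158595257, 15686 bp before its start, with 29 and 12 and rank 2067. Gad1, the other GABA-synthesising enzyme, had none, with 8 intervals in replicate 1 and 6 in replicate 2.

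Cholinergic genes had the weakest shared peaks of all the roles, with a best rank of 11052. Chat, choline acetyltransferase, had a peak with maximum signals of 1 and 5 and one with 2 and 1, both beyond the end of the gene. Slc5a7, the choline transporter, had 2 peaks with 1 in both lists. Slc18a3, the vesicular acetylcholine transporter, is nested in the first intron of Chat, so the windows of these genes overlap and share intervals. It had no shared peak, with 11 intervals in replicate 1 and 4 in replicate 2. This was the only pair of the 32 genes with overlapping windows.

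Most gene starts with an interval had it in a single list. An interval overlapped the 1 kb to either side of a start for 10 genes in replicate 1 (31.2%, against 35.1% of all genes) and for 11 in replicate 2 (34.4%, against 33.6%). For 4 genes, Cplx1, Synpr, Bsn and Unc13a, both lists had an interval there (12.5%, against 16.9%), and for 2, Bsn and Unc13a, the intervals overlapped (6.25%, against 10.2%). These starts are annotated for 28 of the 32 genes, and either end of the span was used for Snap25, Syt4, Vamp2 and Rims2. Over the 28 alone, the counts were 9 in replicate 1 (32.1%, against 33.9% of genes with an annotated start) and 11 in replicate 2 (39.3%, against 32.8%). They were 4 for both lists (14.3%, against 16.4%) and 2 for overlapping intervals (7.14%, against 10.3%). Of the overlapping pairs, Bsn alone met the reciprocal overlap of 50%, as did 4.46% of all genes, and Unc13a alone had a maximum signal of 5 or more in both lists, as did 7.8%. At Cplx1, replicate 1 had intervals with maximum signals of 8 and 17 and replicate 2 had one with 2 between them. At Synpr, replicate 2 had one covering the start with 45 and another with 23, and replicate 1 had one with 15 further downstream.

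Other starts were marked in a single list. Syt1 had the tallest of replicate 1, an uneven interval covering the start with a maximum signal of 31, followed by Dnm1 with 15, Gad2 with 12, Slc18a3 with 10 and Rims1 with 7, beside Rims2 with 21 at an end of its span. In replicate 2 these were Syn2 with 26, Slc32a1 with 25, Chat with 23, Slc17a6 with 21, Syn1 with 10, Syp with 8 and Vamp1 with 5. The other list had no interval within 1 kb of these starts.

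**Figure D4:**
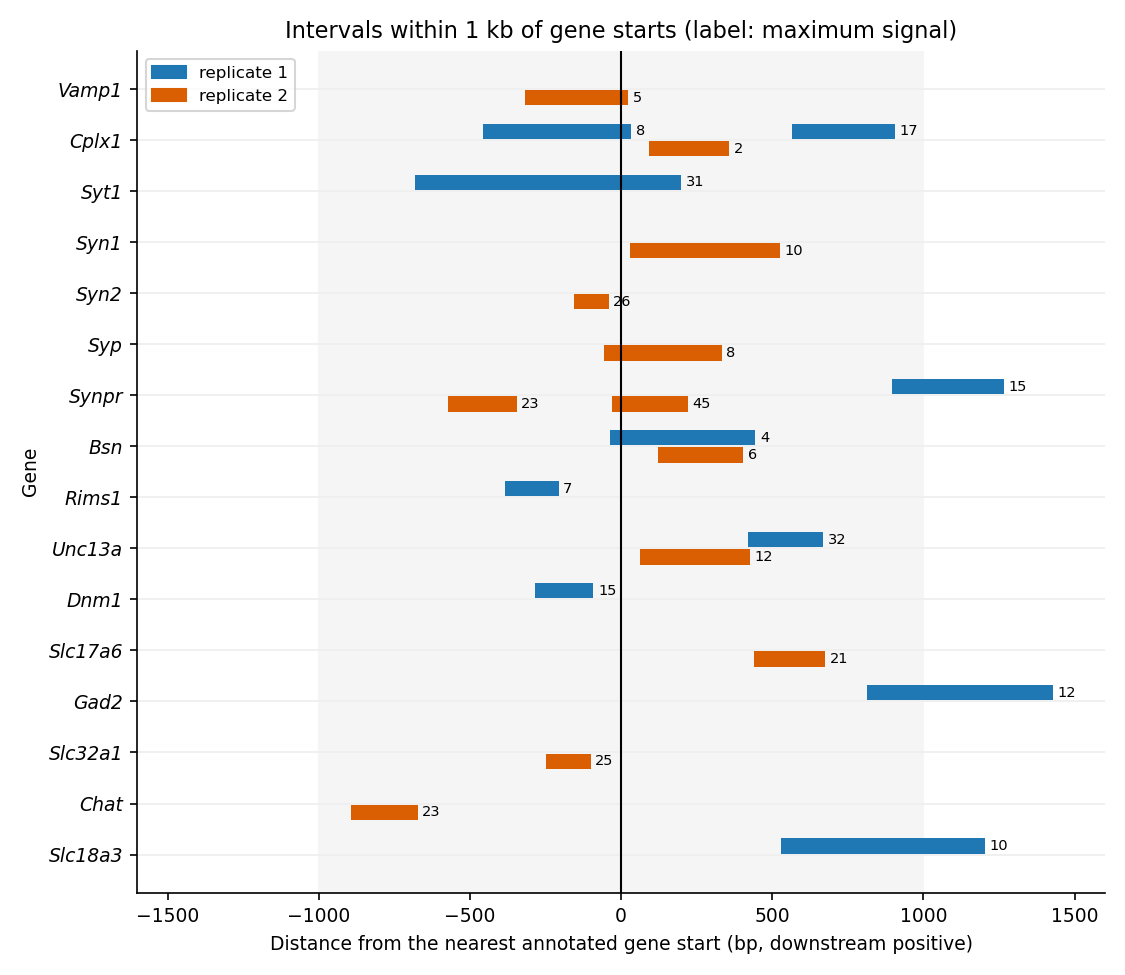
Intervals that overlap the 1 kb to either side of an annotated start, for the 16 genes with any, drawn by distance from the start in bp with the gene running to the right and labelled with the maximum signal. Bars of both lists overlap at Bsn and at Unc13a, where they meet in 7 bp.

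The 40 shared peaks were compared in signal between the lists. Total signal correlated between lists with a Spearman rho of 0.532 over the 40 peaks and of 0.376 over all 13704, a description of regions that share a library and are not independent. Identical ends in both lists were found for 6 of the 40 (15.0%) and for 1850 of all 13704. In each of these 6, around Vamp1, Vamp2, Syt1, Syp, Synpr and Dnm1, one list had a maximum signal of 1 and the other 9 to 28. Over all shared peaks with identical ends, 95.2% had a maximum of 1 in a list, against 36.8% of the others. Without them rho was 0.723 over 34 peaks and 0.498 over all. How such pairs arose was not tested. Without them 21 of the 32 genes had a shared interval, and the share of all genes was not counted.

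**Figure D5:**
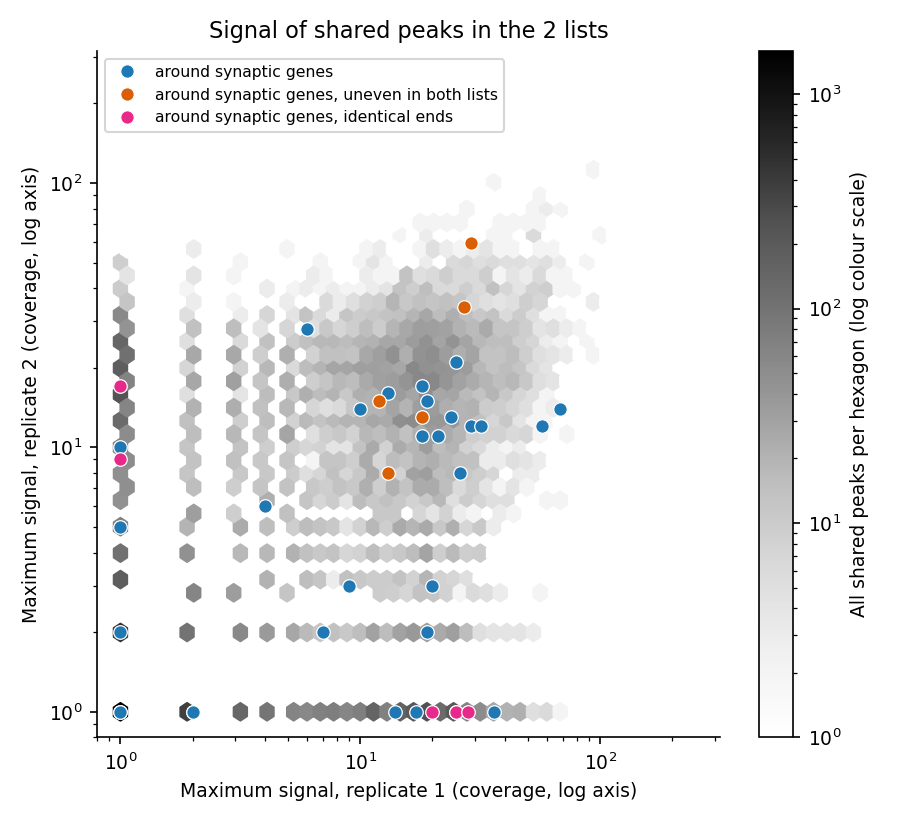
Maximum signal of shared peaks in replicate 1 and replicate 2 on log axes, with all 13704 as grey hexagons and the 40 around synaptic genes as points (30 peaks above 316 are outside the axes). Pairs with identical ends lie at a signal of 1 in a list, and the 5 peaks uneven in both lists lie between 8 and 59.

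Related gene lists were counted in the same way. For comparison, a shared interval was found for 71.9% of the 32 genes and 55.3% of all genes, one at the start for 6.25% and 10.2%, and one uneven in both lists for 12.5% and 7.53%. The lists differ in median window length, which was 148 kb for the 32 genes, and longer windows hold more intervals. Of 54 other presynaptic genes (median window 169 kb), 38 (70.4%) had a shared interval, 7 (13.0%) had one at the start and 3 (5.56%) an uneven one. Of 21 other transmitter genes (147 kb), 15 (71.4%) had a shared interval, 2 (9.52%) had one at the start and 2 (9.52%) an uneven one. Of 35 postsynaptic genes (223 kb), the counts were 24 (68.6%), 3 (8.57%) and 4 (11.4%). Of 24 marker genes of liver and muscle (110 kb), they were 12 (50.0%), 2 (8.33%) and 1 (4.17%). Of 16 transcription factors of retinal progenitors (105 kb), they were 15 (93.8%), 7 (43.8%) and 8 (50.0%). The median density around the progenitor factors was 11.0 intervals per 100 kb in replicate 1 and 12.8 in replicate 2, against 5.37 and 5.73 for the synaptic genes. The difference between the lists was not tested.

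The best of the other presynaptic genes stood higher than any of the 32. Itsn1, an endocytic scaffold, had a shared peak at a start it shares within 1 kb with Cryzl1 (chr16:91728412-91729309), with maximum signals of 56 and 57, rank 91 and uneven coverage in both lists. Syt11, a synaptotagmin that does not sense calcium, had one at its start (chr3:88771336-88772739) with 46 and 30 and rank 197. Rimbp2, a partner of RIM proteins, had 45 and 19 at 22957 bp from its start, and Cadps, a priming factor of dense-core vesicles, had 18 and 41 inside the gene. Among transmitter genes, Ddc and Slc18a2 make and load monoamines. The peak of Ddc had 36 and 38, at the start of Fignl1, and that of Slc18a2 had 25 and 9, inside the gene. Glul, glutamine synthetase, had 45 and 13 at its start.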

How the data were processed

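ISL1 CUT&Tag was deposited as 1 peak list per sample. The authors deposited coverage signal in 6 columns without a header that have the layout of SEACR output. The signal is in whole numbers, as a total over each interval and as its maximum, and any scaling is unknown. Per the submitters' processing notes, SEACR, MACS2, Bowtie2 and FastQC were among the tools and mm10 was the build. Not given in the sources used here: the caller of these lists, its threshold, any control, duplicate removal and region filters. Duplicates, if kept, raise the signal.

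Intervals were joined to RefSeq gene spans of GRCm38.p6, and starts and sequences came from a RefSeq promoter table that covers 17492 of 21887 genes and none on chromosome 18. Python 3.11.15, pandas 2.3.3 and statsmodels 0.14.6 were used. Shared peaks were ranked by the mean rank of total signal in the 2 lists. The members and the lists were chosen with earlier results of these data known. All members are named, and of the other presynaptic and transmitter lists at most the 4 genes each with the best-ranked shared peak, of which 1 is not reported here. The other lists are given by counts. With 1 group there was no test. Alternatives were other reaches, overlaps, thresholds, start windows and uneven limits, each list alone, and no identical pairs. The counting was tested on simulated lists with planted shared intervals. Background intervals of these lists never overlapped, so the simulation could not show false shared calls.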

Additional observations from a re-analysis of the deposited data

How the results depend on the processing

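The count of 23 genes with a shared interval, the 4 with an uneven one and the 40 shared peaks depended on the reach and on what was called shared. With gene spans only, 10 genes, 0 uneven and 12 peaks were counted, and 8.07% and 6.52% of intervals were shared in replicates 1 and 2. With a reach of 10 kb these were 12, 0, 15, 8.25% and 6.70%, with 4.70 intervals per 100 kb, and 9 other transmitter and 4 liver and muscle genes had a shared interval. With a reciprocal overlap of 50% they were 14, 2, 22, 6.09% and 5.54%, with 1 start (Bsn), 25 other presynaptic and 9 other transmitter genes, while 31.9% of all genes had a shared interval. With intervals at or above each list's median total signal, 12 genes, 16 peaks, 1 start, 8% and 7.42% were counted, with 23 other presynaptic, 13 postsynaptic and 5 liver and muscle genes. The share of all genes was not counted for this setting. With a maximum signal of 5 or more in both lists, 13 genes, 19 peaks, 1 start, 7.22%, 6.92% and 15 postsynaptic genes were counted, while 35.4% of all genes had a shared interval. An overlap of 50 bp or more, chosen after seeing the data, left 1 start. Vamp2, Syt1, Sv2a, Rab3a, Rims2, Dnm1, Gad2 and Slc32a1 kept a shared interval under 4 alternatives: the reciprocal overlap, both signal limits and no identical pairs. How many of all genes did so was not counted. With either replicate left out, any interval of the other counted. All 32 genes then had an interval, as did all 24 liver and muscle genes. Of all genes, 98.9% had one in replicate 1 and 99.3% in replicate 2. An interval at a start was counted for 10 to 11 of the 32, against 35.1% and 33.6% of all genes. An uneven interval was counted for 12 to 16, and the share of all genes was not counted. The density was 5.37 to 5.73 intervals per 100 kb. Of the recomputed values, 36 fell and 6 rose by more than 1.5 times for a count, beyond the Wilson interval for a share or beyond 1 SD between replicates for the density. Within those limits 27 were lower, 18 higher and 10 equal. By construction these settings count fewer intervals, shorter windows or a single list. The exceptions are the reach of 100 kb, the wider start window and the looser uneven limit. No paired analysis was possible because both samples belong to 1 group. Unknown read depth limits every count of 0 to these lists.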

Other observations

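Some of the tallest intervals around the synaptic genes were present in a single list, as were most intervals of either list. Over all intervals, 11.5% were shared in replicate 1 and 8.91% in replicate 2. Of all uneven intervals, 35.8% and 28.6% were shared. Inside Chat, replicate 1 had an uneven interval at chr14:32429294-32429613 with a maximum signal of 57, within the reach of Slc18a3 as well, and it was not shared. Around Slc32a1, replicate 1 had one at chr2:158631841-158632455 with 62, 21390 bp from the start, above the 29 of its shared peak. Around Bsn, replicate 1 had one at chr9:108061912-108062861 with 42, outside the gene. Inside Rims1, replicate 1 had one with 40, and inside Syt1, replicate 2 had one at chr10:108856574-108856935 with 33, both uneven and not shared. These intervals were chosen after their values were seen.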
